A study of Homo sapiens with 8 samples.

Results

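The 300 most expressed ZNF genes of a human breast cancer cell line were followed through RNA level, ribosome footprints and translational efficiency after depletion of ADAR1. The deposited table lists 19892 genes, of which 510 have a symbol made of ZNF, a number and at most 1 further letter, and the members are the 300 of these with the highest mean estimated count in the control siRNA Input libraries. Their levels in those libraries are therefore a description of how they were chosen and are not tested. MDA-MB-231, a triple-negative breast cancer line, had been given an siRNA against ADAR1 or a control siRNA, and each treatment was measured by Ribo-seq, which sequences the fragments covered by ribosomes, and by matched RNA-seq, called Input. The 4 groups were ADAR1 siRNA Input, control siRNA Input, ADAR1 siRNA Ribo-seq and control siRNA Ribo-seq, with 2 libraries in each and 8 in all; the sources used here give no siRNA sequence, dose or time. The study's title sets the question as what ADAR1 does to transcriptional output.

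ZNF genes form the largest family of transcription factor genes in the human genome, and most of their proteins bind DNA through arrays of C2H2 zinc fingers, small folds held by a zinc ion. Many also carry a KRAB domain, which recruits the co-repressor TRIM28 and with it histone methylation and HP1, and such KRAB zinc finger proteins are known for silencing transposable elements. The family grew by repeated local duplication, above all on chromosome 19, so neighbouring members share long stretches of sequence. Some ZNF proteins are best known for other work, on the spindle, on ribosomes or on RNA. ADAR1 edits adenosine to inosine in double-stranded RNA, much of which comes from inverted copies of transposable elements.

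Input libraries held 15732757 to 17153716 estimated counts and Ribo-seq libraries 10492223 to 14875465. ADAR stood at 14.8 and 30.6 TPM (a level scaled to transcript length and to the library's total) in ADAR1 siRNA Input, against 106 and 110 TPM in control Input, and at 1.55 and 8.41 TPM in ADAR1 siRNA Ribo-seq, against 19.1 and 20.3 TPM in control Ribo-seq. The groups did not overlap in either assay (log2 -2.26 ± 0.32 SE in Input and -2.04 ± 0.47 in Ribo-seq, edgeR adjusted p = 0.0527 and 0.0482). Markers that the line should hold, VIM, CD44, SNAI2, AXL and MSN, averaged 42.6 TPM or more in both Input groups. Of those it should lack or hold at a low level, ESR1, PGR and CDH1 averaged 0.109 TPM or less in both Input groups, while ERBB2 averaged 31.0 TPM with ADAR1 siRNA and 33.3 TPM with control siRNA and GATA3 averaged 7.15 TPM with ADAR1 siRNA and 7.41 TPM with control siRNA. Of 8 markers of immune, endothelial and fat cells, PECAM1 averaged 2.79 TPM with ADAR1 siRNA and 3.52 TPM with control siRNA, and the other 7 averaged 0.268 TPM or less. The labels do not tie replicates to separate cultures. A p-value here therefore rests on the spread between libraries alone, and that spread may be technical. These are bulk libraries, in which fewer cells holding a transcript and less of it per cell cannot be told apart.

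Most members were low. In control Input the member means ran from 2.16 to 181 TPM with a median of 10.5 TPM, against a median of 24.1 TPM over all 12644 genes tested in RNA. The 300 took 0.894% and 0.828% of counts in ADAR1 siRNA Input, against 0.783% and 0.785% in control Input. They took 0.255% and 0.273% of counts in ADAR1 siRNA Ribo-seq, against 0.281% and 0.284% in control Ribo-seq. The share of the ADAR1 siRNA libraries was thus above both controls in Input and below both in Ribo-seq. Of the members 299 were annotated as protein-coding and ZNF788P as a transcribed pseudogene. Chromosome 19 held 134 of the 300, or 44.7%, against 115 of the 210 ZNF genes below the limit, or 54.8%.

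The most expressed member per length was ZNF207 (chromosome 17, 32350157 to 32381885, GRCh38.p14), which encodes a spindle protein that binds BUB3 and guides chromosome alignment, with 195 and 177 TPM in ADAR1 siRNA Input against 186 and 176 TPM in control Input. ZNF146 followed with 177 and 148 TPM in ADAR1 siRNA Input against 131 and 134 TPM in control Input, and its groups did not overlap. ZNF185, a LIM-domain protein of the actin cytoskeleton, had 111 and 113 TPM with ADAR1 siRNA against 124 and 126 TPM with control siRNA. In ZNF207 the groups overlapped, and in ZNF185 both ADAR1 siRNA libraries were the lower ones; neither gene, nor ZNF146, passed the RNA test described below. ZNF664, ZNF22, ZNF511, ZNF655, ZNF639, ZNF706 and ZNF330, a nucleolar protein gene, completed the first 10, with control Input means between 54.2 and 90.9 TPM. At the lower end of the selection ZNF799, ZNF25 and ZNF2 entered with mean control counts of 120, 119.5 and 119, and ZNF414, ZNF786 and ZNF790 were left out with 119, 118 and 118. ZNF2 and ZNF414 were tied, and the order of the table placed ZNF2 first.

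Fractional counts were common among the members and bear on the values below. The deposited estimated counts are whole numbers for most genes but not for all. In ADAR1 siRNA Ribo-seq libraries 69.7% and 71.3% of members had a fractional count, as did 65.7% and 67.3% in control Ribo-seq, against 14.4% to 17.9% of all genes with a count. In Input the share was 13.7% to 17% of members, against 13.2% to 13.8% of all such genes. Only 67 members, or 22.3%, had whole counts in all 8 libraries, against 67.2% of genes tested, and only 6 of the 134 on chromosome 19 did. The sources used here do not say how the fractions arose, so the levels of the 233 members with a fractional count are uncertain, most of all in Ribo-seq.

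In RNA the members stood higher with ADAR1 siRNA as a group, but none passed the test alone. The control Input libraries that chose the members are also the baseline of this comparison, so the 2 are not independent. With members chosen by all 4 Input libraries the median log2 fold change was 0.18. With members chosen by the ADAR1 siRNA Input libraries it was 0.19. All 300 passed the filter on low counts, and 0 had a Benjamini-Hochberg adjusted p under 0.05 in the quasi-likelihood test of edgeR. Of the 12644 genes tested 0.253% were called, 0.0791% higher and 0.174% lower. DESeq2 called 6 members, ZNF267, ZNF107, ZNF721, ZNF43 and ZNF714 on the higher side and ZNF598 on the lower, which is 2% of members against 3.45% of all genes tested. The number called by edgeR changed with single libraries, in members and in all genes tested alike. Leaving out replicate 1 of ADAR1 siRNA Input gave 81 members (27%, against 32.1% of all genes tested), and leaving out its replicate 2 gave 149 (49.7%, against 42.2%). Leaving out either control gave 0 members and 0 of all genes tested. At an unadjusted p under 0.05, 85 members were higher and 12 lower, which is 28.3% and 4% of them, against 11.8% and 13.5% of all genes tested. Both ADAR1 siRNA libraries lay above both controls for 160 members (53.3%, background 28.5%) and below both for 50 (16.7%, background 29.7%). The log2 fold change was above 0 for 216 members (72%, against 50.6% of all genes tested), with a median of 0.17 against 0.00 over all genes tested and a middle range of -0.03 to 0.33. Each ADAR1 siRNA library showed the shift when set against the control mean, with a member median of 0.22 in replicate 1 and 0.11 in replicate 2, where the median of all genes tested stood at 0.00 in both. It was found at each level of abundance: the 100 members with the most counts had a median of 0.16, the next 100 of 0.17 and the last 100 of 0.21.

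**Figure D1:**
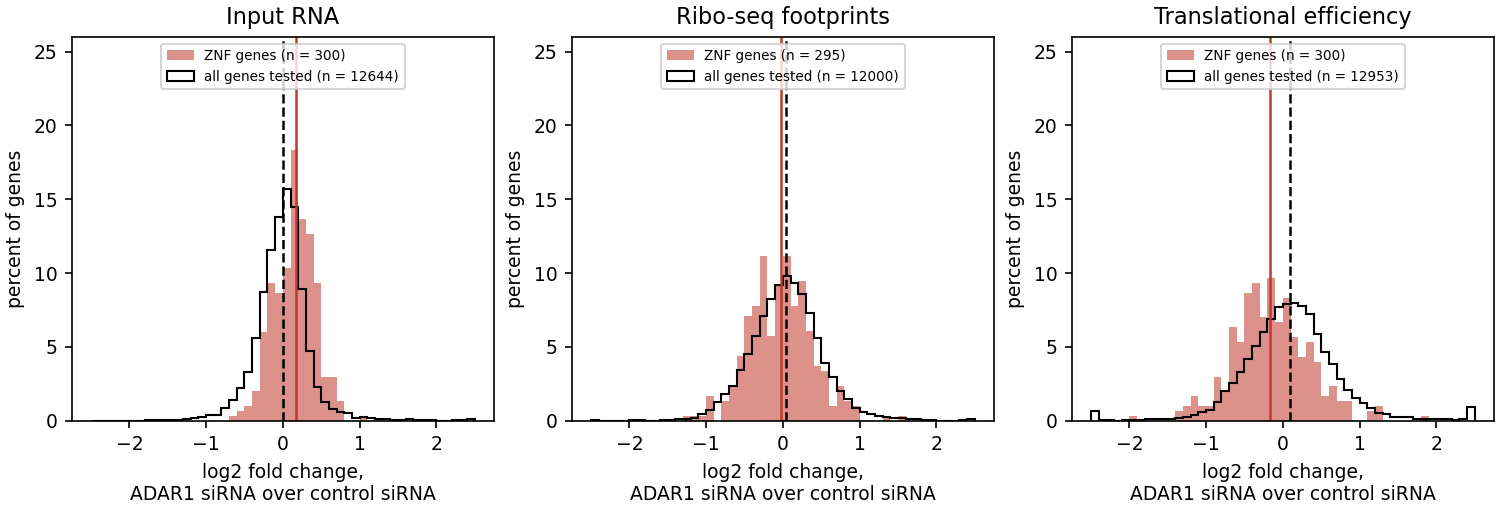
Distribution of log2 fold changes, ADAR1 siRNA over control siRNA, for the ZNF genes (filled) and all genes tested (outline) in Input RNA, Ribo-seq footprints and translational efficiency; the vertical axis is the percent of genes in each interval of 0.1, values beyond the axis are counted at its ends, and vertical lines mark the medians (solid for ZNF genes, dashed for all genes). The ZNF median lies right of that of all genes in RNA (0.17 against 0.00), close to it in Ribo-seq (-0.02 against 0.05) and left of it in translational efficiency (-0.17 against 0.09).

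The RNA shift was unevenly spread over members with and without fractional counts. The 67 members with whole counts in all 8 libraries had a median log2 fold change of -0.02, with 33 above 0, while the 233 with a fractional count in any library had a median of 0.20, with 183 above 0. A division by the Input counts alone gave closer medians. The 223 members with whole counts in the 4 Input libraries had a median of 0.16, with 157 above 0, and the 77 with a fractional Input count had a median of 0.22, with 59 above 0. Within the 223, the 156 with a fractional count in Ribo-seq had a median RNA log2 fold change of 0.19, with 124 above 0. The RNA fit used Input counts only. The part of fractional counts in the shift was not tested.

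The 5 members with the smallest RNA p-values each had groups that did not overlap, and none passed the threshold. ZNF721 (chromosome 4, 439988 to 499156, GRCh38.p14) had 22.4 and 21.6 TPM with ADAR1 siRNA against 14.1 and 13.1 TPM with control siRNA (log2 0.67 ± 0.09 SE, edgeR adjusted p = 0.0527). ZNF107 (chromosome 7, 64666133 to 64711577) had 10.2 and 8.36 TPM with ADAR1 siRNA against 5.12 and 5.34 TPM with control siRNA (log2 0.80 ± 0.13, edgeR adjusted p = 0.0647). ZNF267 (chromosome 16, 31873807 to 31917357), with the highest fitted value of all members, had 21.3 and 14.5 TPM with ADAR1 siRNA against 7.49 and 8.97 TPM with control siRNA (log2 1.09 ± 0.19, edgeR adjusted p = 0.0672). In ZNF267 the ADAR1 siRNA libraries lay further from each other than the controls did, yet the lower of them was still well above the higher control. ZNF100 (chromosome 19, 21722771 to 21767579) had 10.4 and 9.48 TPM with ADAR1 siRNA against 6.40 and 6.80 TPM with control siRNA (log2 0.58 ± 0.11, edgeR adjusted p = 0.0707). ZNF598 (chromosome 16, 1997654 to 2009821), the ubiquitin ligase that senses collided ribosomes and marks their small subunits, was the one of the 5 on the lower side, with 24.2 and 25.8 TPM with ADAR1 siRNA against 37.2 and 35.5 TPM with control siRNA (log2 -0.56 ± 0.10, edgeR adjusted p = 0.0672). All counts of ZNF598 were whole, and those of the other 4 were not. Between 3 and 6 of the 9 alternative settings brought each of these genes under the threshold, all in the same direction.

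**Figure D2:**
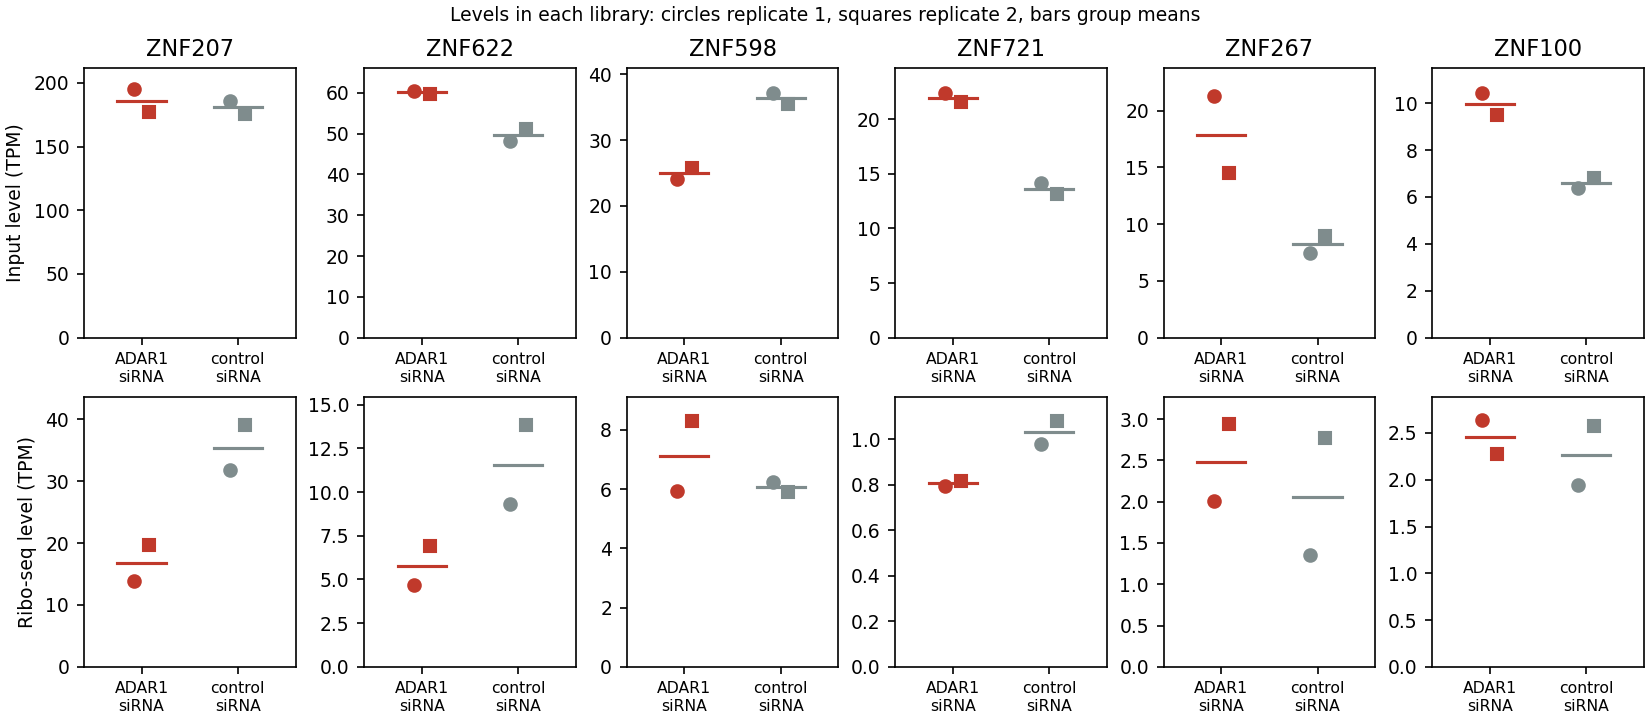
Level in each library (TPM, axes from 0) of 6 ZNF genes in Input (upper row) and Ribo-seq (lower row), ADAR1 siRNA left of control siRNA, with bars for group means. ZNF207 and ZNF622 footprints are lower in both ADAR1 siRNA libraries (13.9 and 19.7 against 31.8 and 39.1 TPM for ZNF207) while their Input levels are not, and ZNF721, ZNF267 and ZNF100 are higher in Input (22.4 and 21.6 against 14.1 and 13.1 TPM for ZNF721) and overlap or lie lower in Ribo-seq.

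On chromosome 19 the change differed in size between clusters. Neighbouring ZNF genes no more than 500000 bases apart were taken as 1 cluster, and 8 such clusters held at least 8 members. In the third from the short-arm end (19668153 to 24129968, GRCh38.p14), all 17 members had an RNA log2 fold change above 0, where 50.6% of all genes tested did, with a median of 0.44. An unadjusted p under 0.05 was found for 11 of them, all higher, where 11.8% of all genes tested had one on that side. This cluster was singled out after its values were seen. It holds ZNF91 and ZNF93, known for repressing SVA and LINE-1 elements. ZNF91 had 13.7 and 10.7 TPM with ADAR1 siRNA against 8.36 and 7.46 TPM with control siRNA (log2 0.62 ± 0.15, edgeR adjusted p = 0.0904). ZNF93 had 13.6 and 10.8 TPM with ADAR1 siRNA against 9.19 and 7.91 TPM with control siRNA (log2 0.50 ± 0.16, edgeR adjusted p = 0.133). Neither gene's groups overlapped. The seventh cluster (55476617 to 56671757) went the other way, with 3 of 9 members above 0 and a median of -0.22, and the other 6 had medians from 0.10 to 0.33. All 134 members on the chromosome had a median of 0.19, against 0.15 for the 166 elsewhere. Only 6 of the 134 had whole counts in all 8 libraries, and these had a median of -0.19, with 2 above 0. On chromosome 16 the 17 members had a median of -0.12. Clusters were defined by position alone and compared as a description, since members of a cluster are related in sequence.

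**Figure D3:**
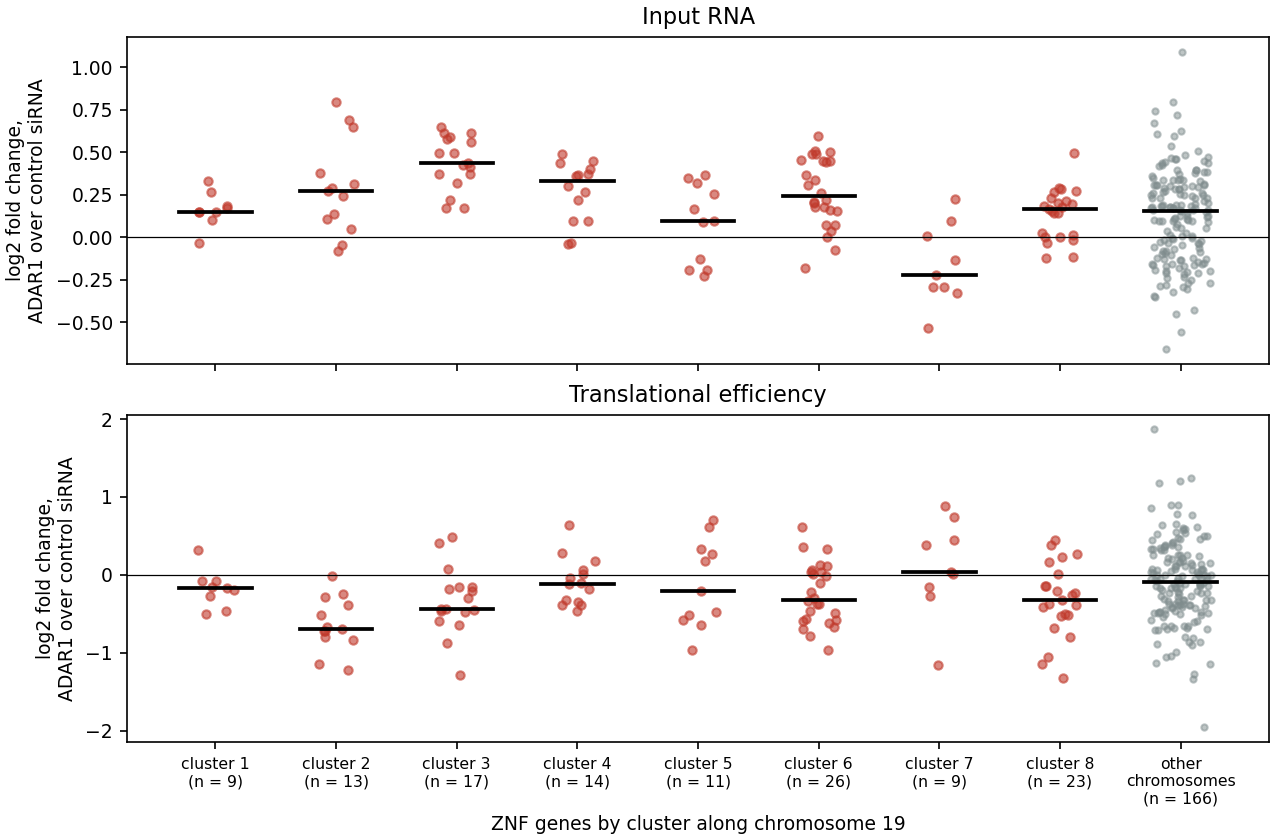
Log2 fold change of each ZNF gene in Input RNA (top) and translational efficiency (bottom) by cluster along chromosome 19, with members on other chromosomes at the right; each point is 1 gene and black bars are medians. All 17 genes of cluster 3 lie above 0 in RNA, with a median of 0.44, and all 13 genes of cluster 2 lie below 0 in translational efficiency, with a median of -0.69.

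Promoters were examined because the RNA values of many members leaned the same way. RefSeq promoter sequences (GRCh38.p14, 250 bases before to 50 after the annotated start) were matched for 261 of the 300 members and for 10401 genes tested. The ETS core CCGGAAG was found on either strand in 116 member promoters, or 44.4%, against 19.7% of those of all genes tested. The box bound by SP and KLF factors (GGGCGG) was in 63.2% of member promoters against 70.3%, the palindromic NRF1 motif in 2.30% against 2.32%, the CRE TGACGTCA in 4.98% against 3.19%, the YY1 core AAGATGGCG in 3.83% against 3.97%, and TATAAA in 2.30% against 5.65%. Of these 6 motifs, all searched on both strands, the ETS core stood furthest above its share in all genes. Member promoters had a median GC content of 62%, against 65.3% for all genes tested, and 22 CpG against 26. A match is a description of letters and not of binding. RNA changes of members with and without the ETS core were not compared. Members related in sequence are not independent matches.

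ZNF107, ZNF267 and ZNF100, on 3 different chromosomes and among the 5 smallest RNA p-values, share an exact run of 15 bases, AACCGTCCAATCAGG, which contains the letters of a CCAAT box. The run was chosen after their values were seen. It occurs in 12 of 27305 RefSeq promoters, 11 of them members, and it lies on the coding strand 29 to 73 bases before the annotated start. In capitals below are this run and, where present, the ETS core or its reverse complement CTTCCGG. ZNF43 and ZNF714 are shown as 2 of the other 8 members with the run, and ZNF598 as a member that lacks it and stood on the lower side in RNA. The promoters lie at chr7:64665883-64666182 (plus strand) for ZNF107, chr16:31873557-31873856 (plus) for ZNF267, chr19:21767530-21767829 (minus) for ZNF100, chr19:21836133-21836432 (minus) for ZNF43, chr19:21081953-21082252 (plus) for ZNF714 and chr16:2009772-2010071 (minus) for ZNF598.
ZNF107: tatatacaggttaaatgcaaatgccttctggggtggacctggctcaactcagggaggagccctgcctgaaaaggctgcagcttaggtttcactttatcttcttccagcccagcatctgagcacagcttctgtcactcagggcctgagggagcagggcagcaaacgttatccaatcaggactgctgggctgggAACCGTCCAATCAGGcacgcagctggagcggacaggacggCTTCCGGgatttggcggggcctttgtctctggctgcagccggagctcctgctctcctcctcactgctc
ZNF267: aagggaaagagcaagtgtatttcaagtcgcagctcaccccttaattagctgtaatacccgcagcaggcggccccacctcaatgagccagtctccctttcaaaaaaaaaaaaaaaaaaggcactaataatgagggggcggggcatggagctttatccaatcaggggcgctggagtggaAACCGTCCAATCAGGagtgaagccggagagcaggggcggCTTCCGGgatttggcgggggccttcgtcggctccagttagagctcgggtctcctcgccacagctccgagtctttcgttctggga
ZNF100: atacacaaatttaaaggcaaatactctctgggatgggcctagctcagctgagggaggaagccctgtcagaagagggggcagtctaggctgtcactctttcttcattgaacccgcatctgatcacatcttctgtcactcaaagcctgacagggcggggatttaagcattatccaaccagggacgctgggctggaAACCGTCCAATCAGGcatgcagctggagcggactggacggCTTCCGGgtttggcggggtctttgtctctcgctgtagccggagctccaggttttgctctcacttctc
ZNF43: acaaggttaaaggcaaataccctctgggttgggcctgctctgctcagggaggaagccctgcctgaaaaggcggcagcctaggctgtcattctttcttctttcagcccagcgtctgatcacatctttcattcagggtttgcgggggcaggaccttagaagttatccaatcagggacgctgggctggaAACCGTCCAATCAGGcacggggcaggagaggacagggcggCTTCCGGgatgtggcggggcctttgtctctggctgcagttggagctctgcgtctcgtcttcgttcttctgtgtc
ZNF714: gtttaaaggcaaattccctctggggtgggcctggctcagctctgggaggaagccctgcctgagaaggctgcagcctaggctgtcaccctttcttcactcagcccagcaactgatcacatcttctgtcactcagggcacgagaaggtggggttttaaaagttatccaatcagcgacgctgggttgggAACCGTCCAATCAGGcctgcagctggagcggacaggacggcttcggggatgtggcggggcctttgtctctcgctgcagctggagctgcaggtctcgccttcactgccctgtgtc
ZNF598: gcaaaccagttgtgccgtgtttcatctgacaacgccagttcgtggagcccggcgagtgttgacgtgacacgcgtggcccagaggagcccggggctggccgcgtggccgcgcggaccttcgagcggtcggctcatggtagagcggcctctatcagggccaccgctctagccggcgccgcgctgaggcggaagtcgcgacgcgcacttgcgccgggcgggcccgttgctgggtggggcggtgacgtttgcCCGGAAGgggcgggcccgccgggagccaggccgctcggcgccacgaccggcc

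In the promoters of ZNF107, ZNF267, ZNF100 and ZNF43 the shared run is followed, before the start, by CTTCCGG. In ZNF714 that stretch does not carry it. The 11 members with the run had RNA log2 fold changes from 0.17 to 1.09, all above 0, with a median of 0.56. The 3 genes that defined it are among these, so the other 8 (ZNF43, ZNF66, ZNF85, ZNF430, ZNF431, ZNF486, ZNF675 and ZNF714) are given apart: 8 of 8 lay above 0 (50.6% of all genes tested), from 0.17 to 0.65, with a median of 0.43. The 250 members with a promoter sequence that lacks it had a median of 0.18, with 185 above 0. ZNF43 had 11.98 and 9.03 TPM with ADAR1 siRNA against 6.37 and 5.90 TPM with control siRNA (log2 0.65 ± 0.13, edgeR adjusted p = 0.0715). ZNF714 had 10.1 and 8.50 TPM with ADAR1 siRNA against 5.94 and 6.49 TPM with control siRNA (log2 0.56 ± 0.11, edgeR adjusted p = 0.0715). The groups of both genes were apart. The run and the place on the chromosome go together. Of the 11 members with the run, 9 lie in the third cluster, and the other 8 given apart are all among these. All 17 members of that cluster lay above 0 in RNA, so the 8 of 8 adds nothing to the cluster's result. There the 9 with the run had a median of 0.44 and the 8 without it, or without a promoter entry, had a median of 0.45. None of the 11 passed the threshold in RNA.

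**Figure D4:**
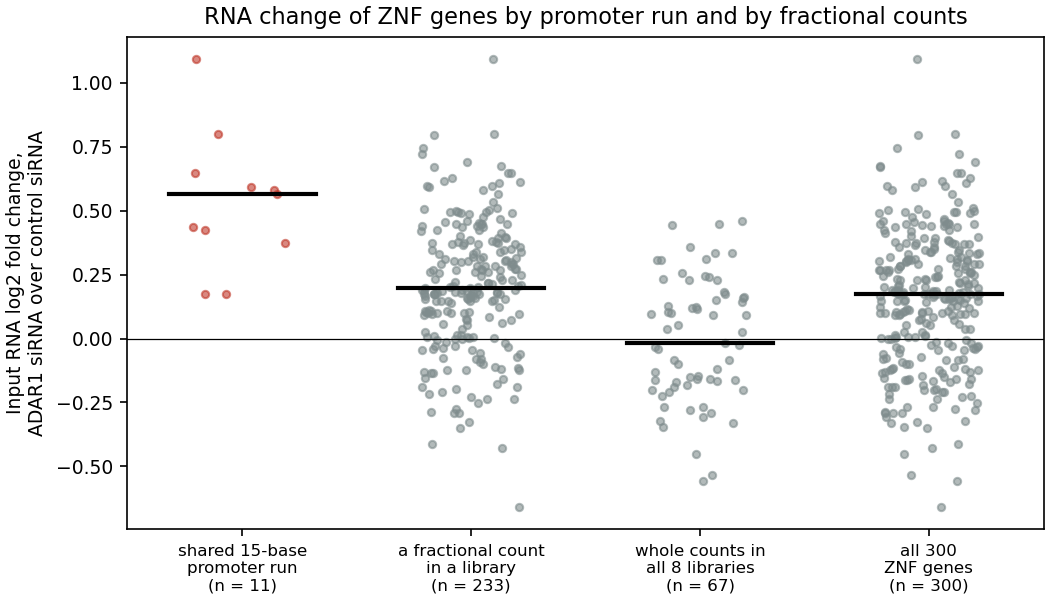
RNA log2 fold change, ADAR1 siRNA over control siRNA, of ZNF genes with the shared 15-base promoter run, with a fractional count in any library, with whole counts in all 8 libraries, and of all 300; each point is 1 gene, bars are medians, and a gene can stand in more than 1 column. The 11 genes with the run all lie above 0 with a median of 0.56, and the 67 with whole counts centre at -0.02.

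In ribosome footprints the member median stood near that of all genes tested, and a smaller share of members was called. The members had a median of 63.5 to 91.5 footprint counts per library, and the part of low counts in that share was not tested. Of the 300, 295 passed the filter on low counts in Ribo-seq; ZNF704, ZNF107, ZNF75D, ZNF219 and ZNF329 did not. By edgeR with Benjamini-Hochberg adjustment 1 member, ZNF207, was called lower (0.339% of members) and none higher. Of the 12000 genes tested 3.54% were called, 1.67% lower and 1.88% higher. DESeq2 called 3 members, ZNF207, ZNF622 and ZNF185, all lower, which is 1.02% of members against 8.15% of all genes tested. DESeq2 gave some genes no adjusted p, among them ZNF114, ZNF304 and ZNF724. Both shares keep such genes among those tested, where they could not be called. Leaving out replicate 1 of ADAR1 siRNA Ribo-seq gave 15 members by edgeR (5.03%, against 15.7% of all genes tested), and leaving out its replicate 2 gave 39 (13.1%, against 28.2%). Leaving out replicate 1 of the controls gave 4 members (1.34%, against 3.07%), and leaving out replicate 2 gave 0, against 0.623%. At an unadjusted p under 0.05, 13 members were higher and 19 lower, which is 4.41% and 6.44% of them, against 12.7% and 11.3% of all genes tested. The ADAR1 siRNA libraries lay above both controls for 62 members (21%, background 30.1%) and below both for 74 (25.1%, background 26.2%). The median log2 fold change was -0.02 against 0.05 over all genes tested, and 142 of the 295 were above 0 (48.1%, against 54.4%). With upper-quartile scaling the member median was 0.03. RNA was above 0 and footprints below 0 for 109 members, and both were above 0 for 104. Across the 295 genes the RNA and footprint changes had a Pearson correlation of 0.04 and a Spearman correlation of 0.04; genes are not independent replicates, and footprint counts were low.

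ZNF207 was the member with the clearest footprint change. Its footprints stood at 13.9 and 19.7 TPM with ADAR1 siRNA against 31.8 and 39.1 TPM with control siRNA, while its Input levels overlapped. The counts behind these were 466 and 614 with ADAR1 siRNA against 806 and 836 with control siRNA, all whole numbers. The fall was 1.99-fold (log2 -0.99 ± 0.18 SE, edgeR adjusted p = 0.0335), and both ADAR1 siRNA libraries lay below both controls. Without control Ribo-seq replicate 2 the value was -0.86 and the call was lost (edgeR adjusted p = 0.199); in the other 8 alternatives the call was kept.

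The 4 next smallest footprint p-values were all on the lower side and just missed the threshold. ZNF622 (chromosome 5, 16451519 to 16465800), the human counterpart of a yeast factor for late maturation of the large ribosomal subunit, had 4.66 and 6.93 TPM in ADAR1 siRNA Ribo-seq against 9.31 and 13.8 TPM in control Ribo-seq (log2 -0.91 ± 0.23, edgeR adjusted p = 0.0587). In Input it leaned the other way, with 60.5 and 59.7 TPM with ADAR1 siRNA against 48.3 and 51.1 TPM with control siRNA (log2 0.26 ± 0.09, edgeR adjusted p = 0.146). The groups did not overlap in either assay. ZNF114 had footprints of 2.12 and 3.61 TPM with ADAR1 siRNA against 5.88 and 6.50 TPM with control siRNA (log2 -1.03 ± 0.25, edgeR adjusted p = 0.0551). ZNF304 had 0.839 and 1.01 TPM with ADAR1 siRNA against 1.81 and 2.68 TPM with control siRNA (log2 -1.19 ± 0.31, edgeR adjusted p = 0.0608). ZNF724 had 2.64 and 3.40 TPM with ADAR1 siRNA against 6.84 and 4.31 TPM with control siRNA (log2 -0.93 ± 0.24, edgeR adjusted p = 0.0608). In each of these 3 both ADAR1 siRNA libraries were below both controls. All counts of ZNF622 were whole, while ZNF114, ZNF304 and ZNF724 each had a fractional count in a library, so their levels are uncertain. For ZNF721 and ZNF267, both among the smallest RNA p-values, footprints did not separate in the same direction. ZNF721 had 0.797 and 0.817 TPM with ADAR1 siRNA against 0.980 and 1.08 TPM with control siRNA, and ZNF267 had 2.01 and 2.94 TPM with ADAR1 siRNA against 1.36 and 2.77 TPM with control siRNA. Of the 10 tested members with the shared promoter run, 8 had footprint changes above 0, with a median of 0.23. The highest was ZNF714 (log2 0.95, edgeR adjusted p = 0.116). In the third cluster 12 of 17 were above 0, with a median of 0.11, against 54.4% of all genes tested.

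Translational efficiency, the footprint change less the RNA change, leaned lower over the members. None of the 300 passed by edgeR with Benjamini-Hochberg adjustment, where 0.0463% of the 12953 genes tested were called, 0.0154% higher and 0.0309% lower. DESeq2 called 9 members, with ZNF598, ZNF703 and ZNF496 higher and ZNF207, ZNF622, ZNF627, ZNF326, ZNF281 and ZNF791 lower, which is 3% of members against 7.47% of all genes tested. Here too genes without an adjusted p by DESeq2, such as ZNF724, count as tested and not called. Leaving out replicate 1 of ADAR1 siRNA Ribo-seq gave 3 members by edgeR (1%, against 3.8% of all genes tested), and leaving out its replicate 2 gave 40 (13.3%, against 16.9%). Leaving out any other library gave 0 members and at most 1 of all genes tested. At an unadjusted p under 0.05, 16 members were higher and 41 lower (5.33% and 13.7%, against 13.2% and 9.47% of all genes tested). The median log2 fold change was -0.17 against 0.09 over all genes tested, and 109 members were above 0 (36.3%, against 57.3%). In the authors' deposited ratio both ADAR1 siRNA values lay below both controls for 123 members (41%, background 27%) and above both for 29 (9.67%, background 23.5%). This comparison uses the same Input libraries as the RNA comparison, so the 2 are not independent. Among those are the control Input libraries that chose the members. The 67 members with whole counts had a median of -0.05, with 30 above 0, and the 233 others a median of -0.21, with 79 above 0. On chromosome 19 the second cluster (11483429 to 12633834) stood lowest, with 0 of 13 members above 0 and a median of -0.69; its footprint median was -0.31 and its RNA median 0.27.

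The smallest p-values for translational efficiency belonged to ZNF207, ZNF598, ZNF622, ZNF724 and ZNF627. ZNF207 had deposited ratios of 0.0715 and 0.111 with ADAR1 siRNA against 0.171 and 0.222 with control siRNA (log2 -0.99 ± 0.18, edgeR adjusted p = 0.0536). ZNF622 had ratios of 0.0770 and 0.116 with ADAR1 siRNA against 0.193 and 0.270 with control siRNA (log2 -1.14 ± 0.25, edgeR adjusted p = 0.0567). ZNF598 was the one on the higher side, with ratios of 0.246 and 0.322 with ADAR1 siRNA against 0.168 and 0.166 with control siRNA (log2 0.89 ± 0.20, edgeR adjusted p = 0.0567). In ZNF598 lower RNA accompanied footprints of 5.94 and 8.31 TPM with ADAR1 siRNA against 6.25 and 5.89 TPM with control siRNA, which overlapped. ZNF724 and ZNF627 stood at -1.28 ± 0.31 and -1.14 ± 0.27 (edgeR adjusted p = 0.0598 for each). The ratios of all 5 genes were apart between the groups. ZNF326, a subunit of the DBIRD complex that links transcript elongation with splicing, had 1.97 and 2.63 with ADAR1 siRNA against 3.72 and 3.72 with control siRNA (log2 -0.69 ± 0.17, edgeR adjusted p = 0.0613).

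Members were also read by what their proteins are known to do. In the counts that follow, an unadjusted p under 0.05 in either direction was found for 25.3% of all genes tested in RNA, 24% in Ribo-seq and 22.7% in translational efficiency. DESeq2 called 3.45%, 8.15% and 7.47% of all genes tested in the same order, and edgeR called 0.253%, 3.54% and 0.0463%. These lists are short, and no list's share was tested against those of all genes. Of 10 ZNF genes linked to RNA or ribosomes, 0 passed in any of the 3 edgeR tests, while DESeq2 called ZNF598 in RNA, ZNF622 in Ribo-seq and ZNF598, ZNF622 and ZNF326 in translational efficiency. Footprint p-values under 0.05 before adjustment were found for ZNF638 on the higher side and for ZNF622, ZNF326 and ZNF106 on the lower, and the list had 4 such p-values in RNA and 5 in translational efficiency. The list had medians of 0.02 in RNA, 0.02 in Ribo-seq and 0.05 in translational efficiency. ZNF638, a nuclear RNA-binding protein, had footprints of 2.19 and 2.35 TPM with ADAR1 siRNA against 1.80 and 1.67 TPM with control siRNA (log2 0.49 ± 0.18, edgeR adjusted p = 0.136). Among 5 measured genes of chromosome behaviour and cell division, ZNF207 alone was called in Ribo-seq; ZNF451, a SUMO ligase, stood at -0.28 ± 0.16 there (edgeR adjusted p = 0.323). ZNF365, the sixth gene of that list, was too low to be tested.

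Of 10 transcription-activating or architectural ZNF genes none passed by edgeR and DESeq2 called ZNF281 lower in translational efficiency. Unadjusted p-values under 0.05 numbered 2 in RNA, 2 in Ribo-seq and 4 in translational efficiency, and the medians were 0.10 in RNA, -0.04 in Ribo-seq and -0.11 in translational efficiency. ZNF143, which binds and activates many promoters, had footprints of 4.58 and 5.56 TPM with ADAR1 siRNA against 6.75 and 8.79 TPM with control siRNA (log2 -0.53 ± 0.19, edgeR adjusted p = 0.133). ZNF281 had 2.91 and 4.70 TPM with ADAR1 siRNA against 5.57 and 7.12 TPM with control siRNA (log2 -0.65 ± 0.22, edgeR adjusted p = 0.111). Both pairs were apart. Of 12 ZNF genes of chromatin complexes, 11 of them tested in Ribo-seq, none passed by edgeR or DESeq2. Unadjusted p-values under 0.05 numbered 5 in RNA, 0 in Ribo-seq and 5 in translational efficiency, and the medians were 0.07, -0.02 and -0.01. ZNF518A, a partner of the G9a and GLP methyltransferases, stood at 0.44 ± 0.13 in RNA and -0.70 ± 0.41 in Ribo-seq (edgeR adjusted p = 0.112 and 0.325), and ZNF462 at 0.56 ± 0.26 in Ribo-seq (edgeR adjusted p = 0.216).

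The 6 KRAB genes known for binding repeats or imprinted loci had a median RNA log2 fold change of 0.35, with 5 above 0, 3 at an unadjusted p under 0.05 and 0 passing by edgeR or DESeq2. They were ZNF91, ZNF93, ZNF649, ZNF765, ZNF274 and ZNF445, of which ZNF649 ranked below the 300. ZNF445, needed to keep imprints, was at -0.04 ± 0.09 in RNA and -0.44 ± 0.28 in Ribo-seq, and ZNF274, which binds the ends of other ZNF genes, at 0.20 ± 0.13 and 0.34 ± 0.20 (edgeR adjusted p between 0.342 and 0.792). Of the 5 ZNF genes linked to breast cancer, 4 were tested, and none passed by edgeR, with 1 unadjusted p under 0.05 in RNA, 1 in Ribo-seq and 2 in translational efficiency, where DESeq2 called ZNF703 higher. ZNF703, amplified in luminal tumours, had footprints of 5.50 and 6.75 TPM with ADAR1 siRNA against 4.38 and 4.26 TPM with control siRNA (log2 0.59 ± 0.19, edgeR adjusted p = 0.0982). ZNF652 had 2.00 and 3.09 TPM with ADAR1 siRNA against 2.00 and 1.64 TPM with control siRNA (log2 0.59 ± 0.29, edgeR adjusted p = 0.251).

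A list of 23 genes covered the KRAB co-repressor and heterochromatin in general, not only what KRAB zinc finger proteins recruit. None passed in RNA by edgeR, where the median was -0.04, 10 were above 0 and 9 had an unadjusted p under 0.05, where 25.3% of all genes tested had one. DESeq2 called 1 of the 23, the HP1 gene CBX5, higher, where it called 3.45% of all genes tested. In Ribo-seq the median was -0.25 with 4 of 23 above 0 (54.4% of all genes tested were above 0). There edgeR called 1 of the 23, against 3.54% of all genes tested: UHRF1, which reads methylated histones and hemimethylated DNA, was lower, with 13.7 and 21.5 TPM with ADAR1 siRNA against 28.6 and 38.0 TPM with control siRNA (log2 -0.84 ± 0.20, edgeR adjusted p = 0.0488). TRIM28, the co-repressor itself, had footprints of 50.2 and 85.0 TPM with ADAR1 siRNA against 92.9 and 115 TPM with control siRNA (log2 -0.54 ± 0.20, edgeR adjusted p = 0.134), and EHMT2, the histone methyltransferase G9a, stood at -0.61 ± 0.20 (edgeR adjusted p = 0.106). The groups of UHRF1 and TRIM28 did not overlap, though the higher ADAR1 siRNA library of TRIM28 came close to the lower control. In Input TRIM28 had 261 and 271 TPM with ADAR1 siRNA against 301 and 295 TPM with control siRNA (log2 -0.18 ± 0.07, edgeR adjusted p = 0.193).

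Related gene families were set beside the members in the same fits. Of the 210 ZNF genes below the limit, 146 were tested in RNA and had a median of 0.26 with 113 above 0, and 147 in translational efficiency with a median of -0.30. The RNA median was 0.25 for 16 ZSCAN genes, 0.23 for 15 ZFP genes and 0.11 for 7 ZKSCAN genes, which hold mostly C2H2 zinc finger genes too. It was 0.07 for 38 ZBTB genes and -0.06 for 15 KLF genes, whose proteins have zinc fingers as well. Families were taken by symbol, and none was divided by KRAB domain. No gene of these families passed in RNA by edgeR, where the families named had 2 to 10 unadjusted p-values under 0.05 each besides the 30 of the other ZNF genes (25.3% of all genes tested had one), and no difference between a family and the members was tested.

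In control cells most members had a low translational efficiency. Over the 293 members with a mean control Ribo-seq count of at least 10, the authors' deposited ratio of Ribo-seq TPM to Input TPM had a median of 0.228, against 0.390 over all tested genes with as many counts. It was below 0.1 for 50 members and above 1 for 17. The lowest were ZNF664, with 0.0202 and 0.0167 in the 2 control pairs, and ZNF83, with 0.0394 and 0.0145, followed by ZNF45, ZNF646 and ZNF804A. The highest were ZNF706, with 5.49 and 5.76, and ZNF626, with 4.67 and 3.03, followed by ZNF326, ZNF141 and ZNF268. The extremes differ by far more than the pairs of either gene. ZNF706 shows what such a ratio means in levels, with 306 and 305 TPM in control Ribo-seq and 55.7 and 53.0 TPM in control Input. A ratio of TPM can differ from a ratio of counts, since TPM is scaled to length. ZNF326 had 57.0 and 54.1 TPM in control Ribo-seq against 15.3 and 14.6 TPM in control Input. Its counts were 586 and 484 against 784 and 804. Ratios of single genes were not recomputed from counts, so their order holds for the deposited ratio only. With ADAR1 siRNA the member median of the ratio was 0.149 and 0.207 in the 2 pairs, against 0.217 and 0.224 with control siRNA, and over all tested genes 0.326 and 0.400 against 0.376 and 0.397. No test was made of the control ratio, because the control Input libraries chose the members.

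**Figure D5:**
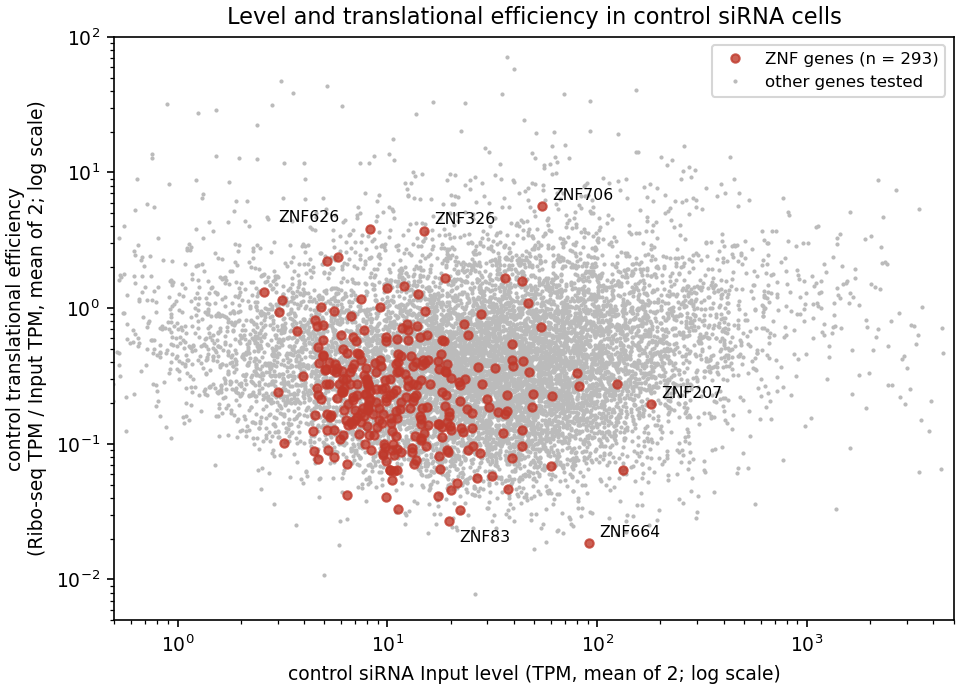
Control Input level against control translational efficiency (deposited ratio, mean of 2 pairs; both axes log scale) for 293 ZNF genes and the other genes tested with a mean control Ribo-seq count of at least 10. Most ZNF genes lie low on both axes, with a median ratio of 0.228 against 0.390, while ZNF706, ZNF626 and ZNF326 lie high in this ratio of TPM. The ZNF genes were chosen by counts in the control Input libraries, whose level is the horizontal axis and divides the ratio.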

How the data were processed

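RNA-seq (Input) and Ribo-seq were measured in 8 libraries, 2 in each of 4 groups taken from the titles. The authors deposited 1 table with 3 kinds of values per library: an estimated count per gene without normalization, TPM, and a translational efficiency ratio, the Ribo-seq TPM divided by the Input TPM of the same siRNA and replicate number. Per the submitters' processing notes, cutadapt, Bowtie2, STAR and featureCounts were used with build GRCh38 (hg38). The sources used here give neither versions and settings nor the strand of counting or the origin of fractional counts. Both kinds of library were amplified by PCR, and the labels mention no molecular identifiers, so reads are not independent molecules.

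Gene numbers were matched to RefSeq symbols and coordinates (GRCh38.p14) for 19669 of 19892 genes. Rounded to whole numbers, the estimated counts were fitted with edgeR 4.0.16 in R 4.3.3 (TMM scaling, filterByExpr, quasi-likelihood test, two-sided, Benjamini-Hochberg adjustment over all genes tested, threshold 0.05). RNA used the 4 Input libraries, Ribo-seq the 4 Ribo-seq libraries, and translational efficiency the interaction of assay and siRNA over all 8. Standard errors are the log2 fold change divided by the square root of the F statistic. The scripts were tested on simulated data. With 2 libraries against 2, the smallest two-sided p of an exact permutation test is 0.333.

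The members and all gene lists were chosen with earlier results of these data known. Genes named are the 10 members with the highest control Input TPM, called members with a mean count of at least 50 or, where fewer than 5 qualified, the 5 with the smallest p in each comparison, the 5 highest and 5 lowest control ratios, the 3 genes on either side of the rank limit, and the 2 genes of each list with the smallest Ribo-seq p. ZNF91, ZNF93, TRIM28, CBX5, ZNF106, ZNF326 as a translational efficiency result, the members called by DESeq2, the holders of the shared promoter run and the members that failed the Ribo-seq filter were named after their values were seen, as were the clusters singled out. Alternatives were DESeq2 1.42.0, upper-quartile scaling, no filter, a mean count of at least 50, a replicate block, leaving out each library, and other choices of members. Replicate numbers were not treated as pairs.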

Additional observations from a re-analysis of the deposited data

How the results depend on the processing

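The number of members called changed with the setting, and so did the share of all genes tested that was called. In RNA, 0 were called by edgeR (97 at an unadjusted p under 0.05), 6 by DESeq2, 1 with a mean count of at least 50, 1 without a filter (0.333% of members and 0.658% and 0.583% of all genes tested) and 28 with the replicate block (9.33%, against 8.63%). With 1 library left out, 0 to 149 were called. In Ribo-seq, 1 was called by edgeR, 3 by DESeq2, 12 without a filter (4%, against 10.9%), 15 with the replicate block (5.08%, against 17.5%) and 0 to 39 with 1 library left out. In translational efficiency, 0 were called by edgeR (57 at an unadjusted p under 0.05), 9 by DESeq2, 14 without a filter (4.67%, against 5.04%), 4 with the replicate block (1.33%, against 3.44%) and 0 to 40 with 1 library left out. Both shares for DESeq2 and for each library left out stand beside the results above. The share of members was above that of all genes tested in 2 of these settings, the replicate block in RNA and the one without replicate 2 of ADAR1 siRNA Input. Where a group keeps 1 library, that library is assumed to vary as the complete pair does.

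The replicate block was fitted although nothing in the labels says that numbers pair the libraries. Deviations of same-numbered libraries correlated over genes at 0.00051 between the siRNAs in Input, 0.018 between them in Ribo-seq, 0.020 between the assays with control siRNA and 0.32 between the assays with ADAR1 siRNA.

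The RNA median of 0.17 ran from 0.10 to 0.22 with 1 library left out, from 0.15 to 0.19 with other choices of members, and was -0.019 over the 67 members with whole counts, a choice made after seeing the data. The Ribo-seq median of -0.02 was 0.030 with upper-quartile scaling, -0.087 over members with whole counts and -0.11 to 0.0083 with 1 library left out. The translational efficiency median of -0.17 stayed below 0 in all 17 alternatives run. The control ratio's median of 0.228 was 0.356 as a ratio of TMM-scaled CPM (0.611 over all genes tested), 0.305 with at least 50 counts in each control library (0.416 over all), 0.155 over members with whole counts, and 0.217 and 0.224 in the 2 single control pairs. None of the 15 results for single genes that were recomputed changed direction. Over these genes and settings, 1 result lost its call (ZNF207 in Ribo-seq, above), and 21, 19 and 19 gained one in RNA, Ribo-seq and translational efficiency. The causes were not tested. Many members had fewer than 100 footprints per library, which limits what Ribo-seq and translational efficiency could show for a single gene.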
